A study of Mus musculus with 6 samples.

Results

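The genes examined were the 10 that encode the core and accessory subunits of Polycomb repressive complex 2 (PRC2). They were found by gene symbol among the 35565 mouse identifiers of the count table, and all 10 had enough counts to be tested. All 10 are reported, whatever their values, but the family was chosen with earlier results of these data known. The core is represented by *Ezh1*, *Ezh2*, *Eed* and *Suz12*, the PRC2.1 form by *Phf1*, *Mtf2*, *Phf19* and *Epop*, and the PRC2.2 form by *Jarid2* and *Aebp2*. Their mRNA levels were measured by bulk RNA sequencing of gastruloids, aggregates of mouse embryonic stem cells (ESCs) that form a body axis in culture, at day 5. There were 3 Control (NT) and 3 *T-UCstem1* KD-1 libraries. Both groups derived from the TBV2 129/SvP ESC line, were cultured in N2B27 medium and received a pulse of 3 µM CHIR99021, a GSK3 inhibitor that activates WNT signalling. KD-1 is a single clone with stable silencing of *T-UCstem1*, a long non-coding RNA that holds an ultraconserved element. The sample labels call the control genotype WT, whereas the study describes cells with a non-targeting (NT) construct, and the effect of the silencing and a difference between these lines cannot be told apart. The 3 samples of a group are described as biological replicates, and how many gastruloids each one pooled is not given in the sources used here.

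PRC2 places methyl groups on lysine 27 of histone H3, a mark of silenced chromatin at developmental regulator genes in ESCs. EZH2 or its paralog EZH1 is the catalytic subunit, and EED and SUZ12 hold the complex together. EED also binds the methylated mark. The accessory subunits occur in alternative assemblies and influence where PRC2 binds: in PRC2.1 one Polycomb-like protein (PHF1, MTF2 or PHF19) occupies SUZ12, with or without EPOP, and in PRC2.2 the complex holds JARID2 and AEBP2. *T-UCstem1* has been described as a partner of PRC2 in ESCs, which raises the question of whether the mRNAs of the subunits differ when it is silenced.

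The promoter sequences of the 4 members whose mRNA was called higher in KD-1 are shown here, since they allow a look at features that the choice of the genes did not use. They are the 250 bases before the RefSeq transcription start on GRCm38.p6, 5′ to 3′ on the strand of the gene. For *Mtf2* and *Jarid2*, which have more than 1 promoter in the RefSeq table, the first is given. Capitals mark matches to an E2F-type motif, searched on both strands as TTTCCCGC, TTTGGCGC, TTTCGCGC and TTTGCCGC.
*Suz12*, chr11:79992856-79993105, plus strand: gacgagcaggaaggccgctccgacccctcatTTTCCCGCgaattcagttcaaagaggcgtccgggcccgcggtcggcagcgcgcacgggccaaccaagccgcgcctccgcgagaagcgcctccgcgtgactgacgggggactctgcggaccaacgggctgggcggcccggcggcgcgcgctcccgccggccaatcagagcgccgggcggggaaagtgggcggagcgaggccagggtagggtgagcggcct
*Phf19*, chr2:34913977-34914226, minus strand: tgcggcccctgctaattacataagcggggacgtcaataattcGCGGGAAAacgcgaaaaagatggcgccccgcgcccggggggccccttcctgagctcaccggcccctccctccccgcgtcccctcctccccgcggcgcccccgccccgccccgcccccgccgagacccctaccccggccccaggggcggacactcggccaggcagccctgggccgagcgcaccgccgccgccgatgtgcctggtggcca
*Mtf2*, chr5:108065424-108065673, plus strand: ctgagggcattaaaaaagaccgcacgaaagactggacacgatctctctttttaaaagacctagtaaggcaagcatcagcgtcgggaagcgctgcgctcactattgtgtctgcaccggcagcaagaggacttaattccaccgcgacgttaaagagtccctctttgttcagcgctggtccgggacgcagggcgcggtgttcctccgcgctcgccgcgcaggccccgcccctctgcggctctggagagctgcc
*Jarid2*, chr13:44730524-44730773, plus strand: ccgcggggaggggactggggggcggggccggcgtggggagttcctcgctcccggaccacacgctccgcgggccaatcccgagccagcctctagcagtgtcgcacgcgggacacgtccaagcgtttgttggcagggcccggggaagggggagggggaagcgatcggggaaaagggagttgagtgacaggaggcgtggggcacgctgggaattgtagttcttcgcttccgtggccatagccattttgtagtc

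The table held 13 promoters of 9 members and none for *Epop*. A match was found in 2 of the 13, that of *Suz12*, beginning 219 bases before the start, and that of *Phf19*, beginning 208 bases before the start. Of all 32851 promoters of the same length in the table, 611 (1.86%) held a match. The ratio of observed to expected CpG dinucleotides had a median of 0.373 over all promoters. It was 1.1 for *Suz12*, 1.05 for *Mtf2*, 0.923 for *Phf19* and 0.864 for *Jarid2*, and 2.29%, 3.66%, 10.1% and 14.2% of all promoters, respectively, were at least as high. High ratios were also seen in other members: the promoter of *Ezh2*, which was not called, had 0.91, and that of *Phf1*, called lower, had 0.739. *Ezh1* had 0.738 and *Eed* had 0.652. The further promoter of *Jarid2* had 0.899. Lower ratios occurred too: the further promoter of *Mtf2* had 0.149, and the promoters of *Aebp2* had 0.0743, 0.634 and 0.195. Each motif searched holds a CpG, and the share with a match was not computed for promoters of similar CpG ratio. Matches and CpG ratios describe these windows only.

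In KD-1 gastruloids 4 of the 10 members were called higher and 1 lower. The rises were those of *Jarid2* (2.76-fold), *Phf19* (2.48-fold), *Suz12* (1.79-fold) and *Mtf2* (1.62-fold), and *Phf1* fell to 0.628 of its level in Control (NT). The catalytic subunit genes *Ezh1* and *Ezh2* were within 1.10-fold of Control (NT). To be called, a gene needed a change of more than 1.5-fold in either direction and an adjusted p under 0.05 in edgeR's quasi-likelihood test (Benjamini-Hochberg over all genes tested). By this rule 37.7% of all 15110 genes tested were called (19.7% higher, 18.1% lower), beside which the 5 of 10 members called do not set PRC2 apart. At any fold change, 6 members were higher and 2 lower at an adjusted p under 0.05, against a background of 63.5% of genes in either direction (30.9% higher and 32.6% lower). In 9 of the 10 members the libraries of the groups did not overlap, as in 70.6% of all genes tested. In bulk RNA, fewer cells of a type and less RNA per cell cannot be told apart.

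**Figure D1:**
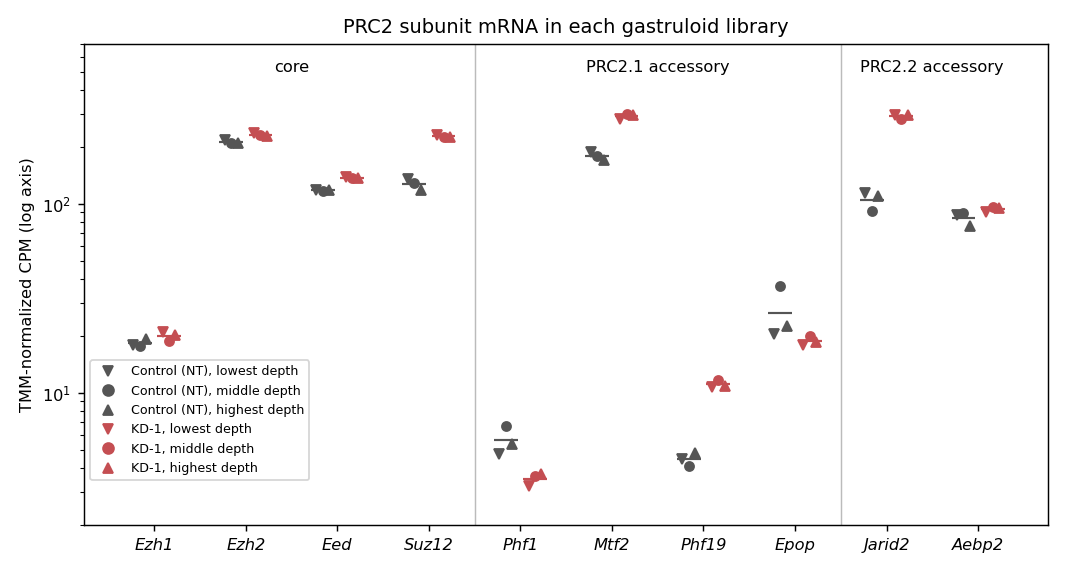
TMM-normalized CPM (read counts scaled by library size and composition, log axis) of each PRC2 subunit gene in the 3 Control (NT) and 3 KD-1 libraries, with a point for each library, its shape giving the depth within the group, and a bar at the group mean. The KD-1 points of *Suz12*, *Mtf2*, *Phf19* and *Jarid2* lie above all their Control (NT) points, and those of *Phf1* lie below.

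The libraries held between 20982249 and 85561026 counts and are named by depth, lowest, middle or highest in their group. The middle-depth Control (NT) library stood apart from its group, with a chi-square of 34 and 34.3 per degree of freedom against the others, which differed by 14.4, while the KD-1 pairs differed by 4.67 to 10.5. Without it the log2 fold changes of *Suz12*, *Mtf2* and *Phf19* were 0.85, 0.70 and 1.24, and the members it moved more are given with and without it. Markers of other cell states moved with the groups. The summed level of 10 naive pluripotency markers lay between 428 and 482 CPM (here of the library total, without TMM) in Control (NT) and between 1465 and 1486 in KD-1, and 8 of the 10 were called higher. For 10 presomitic and somite markers the sums were 430 to 496 and 3.54 to 3.81 CPM, and the 9 tested were all called lower (*Msgn1*, not tested, was at 0 in each KD-1 library). For 10 neural markers they were 162 to 164 and 361 to 373 CPM, with 7 called higher. Tail bud and neuromesodermal progenitor markers, which check the labelled gastruloid identity, were present in both groups (164 to 177 and 186 to 198 CPM, with 2 of 8 called higher and 2 lower). Endothelial and endoderm markers, pooled in a single list, summed to 144 to 171 and 341 to 348 CPM (3 of the 5 tested were called higher and 1 lower). Of those not tested, *Cdh5* held 7, 8 and 21 counts in Control (NT), by rising depth, and 1, 1 and 2 in KD-1. *Sox17* held 4, 9 and 9 against 0, 0 and 1, and *Foxa2* held 2, 1 and 1 against 6, 5 and 9. The sum therefore does not describe either lineage alone. Feeder fibroblast markers summed to 8.25 to 8.96 and 0.830 to 1.04 CPM (3 of the 4 tested were called lower, and *Lum* and *Postn* were at 0 in each KD-1 library). Over all genes tested, 19.7% were called higher and 18.1% lower. A somite or feeder marker at the detection limit in KD-1 could enter the test only through its Control (NT) counts. For such a marker only a fall could be called, so these shares are not read as results about the lists. The summed level of 22 cell cycle and E2F target genes lay between 5288 and 5526 CPM in Control (NT) and between 6261 and 6300 in KD-1, with 2 called higher, none lower and a median log2 fold change of 0.05. At any fold change, 9 of the 22 were higher and 7 lower at an adjusted p under 0.05 (edgeR's quasi-likelihood test). The part of these markers in the results for the subunits was not tested.

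Among the core subunits, *Suz12* changed by more than 1.5-fold and the other 3 did not. *Suz12* (ENSMUSG00000017548, GRCm39 chr11:79883891-79925421, plus strand) encodes the scaffold on which the core and the accessory subunits assemble. In the Control (NT) libraries of lowest, middle and highest depth it had 135, 129 and 118 TMM-normalized CPM, and in the KD-1 libraries, in the same order, 230, 226 and 227. Every KD-1 library lay well above the highest Control (NT) library. The log2 fold change was 0.84 (standard error 0.06, 95% interval 0.70 to 0.98, adjusted p = 7.3e-06 by edgeR's quasi-likelihood test). Absolute log2 fold changes at least as large were seen in 29.2% of all genes tested. The gene span of *Suz12* overlaps that of *Crlf3* on the opposite strand. *Crlf3* had a log2 fold change of 0.47 that did not reach the fold change threshold.

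*Eed* (ENSMUSG00000030619, GRCm39 chr7:89603862-89630217, minus strand) encodes the subunit that binds the methylated mark. It had 118, 117 and 118 CPM in Control (NT) and 138, 136 and 138 CPM in KD-1, again in the order of depth. The spread within either group was small and the groups did not overlap, so that a log2 fold change of only 0.22 (standard error 0.05, 95% interval 0.11 to 0.33) passed the adjusted p (0.0037, edgeR's quasi-likelihood test). It stayed under 1.5-fold, and 75.1% of all genes tested changed by at least as much. *Eed* shares 355 bp with *E230029C05Rik*, a long non-coding RNA gene on the opposite strand that is not among the identifiers counted.

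*Ezh2* (ENSMUSG00000029687, GRCm39 chr6:47507073-47572331, minus strand) encodes the catalytic subunit that prevails in dividing cells. Its level was 216, 210.0 and 208 CPM in the Control (NT) libraries and 237, 232 and 228 CPM in the KD-1 libraries. Every KD-1 library was above every Control (NT) library, by a narrow margin. The log2 fold change was 0.13 (standard error 0.05, 95% interval 0.02 to 0.25), at an adjusted p of 0.043 in edgeR's quasi-likelihood test that lay between 0.0065 and 0.11 over the 14 other settings tried. *Cul1*, whose gene span overlaps that of *Ezh2* on the opposite strand, had a log2 fold change of -0.15. *Ezh1* (ENSMUSG00000006920, GRCm39 chr11:101081934-101117315, minus strand) encodes the paralog with weaker methyltransferase activity. It had 17.8, 17.6 and 19.3 CPM in Control (NT) and 21.0, 18.8 and 20.2 CPM in KD-1. The groups overlapped, and no difference was detected (log2 fold change 0.13, standard error 0.08, 95% interval -0.05 to 0.31, adjusted p = 0.17 by edgeR's quasi-likelihood test). *Ezh1* shares 806 bp with *Cntnap1* on the opposite strand, which held 124 counts over all libraries against 5489 for *Ezh1*.

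**Figure D2:**
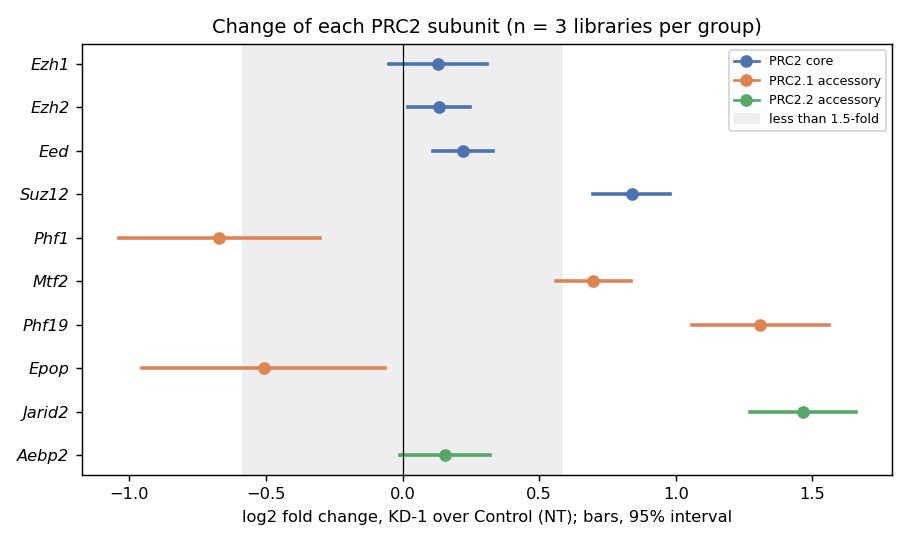
Log2 fold change of each PRC2 subunit gene, KD-1 over Control (NT), with 95% intervals from edgeR's quasi-likelihood fit (3 libraries per group) and changes of less than 1.5-fold shaded. Core genes other than *Suz12* lie within the shaded band, while the accessory genes extend from -0.67 (*Phf1*) to 1.46 (*Jarid2*).

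The PRC2.1 genes changed in both directions. *Mtf2*, *Phf19* and *Phf1* encode the Polycomb-like proteins, which bind DNA and methylated lysine 36 of histone H3 and of which a PRC2.1 complex holds one. *Mtf2* (ENSMUSG00000029267, GRCm39 chr5:108213540-108256877, plus strand), the most abundant of the trio, had 188, 179 and 170 CPM in Control (NT) and 280, 298 and 293 CPM in KD-1. The groups were far apart relative to the spread within them, with a log2 fold change of 0.70 (standard error 0.06, 95% interval 0.56 to 0.83, adjusted p = 1.7e-05 by edgeR's quasi-likelihood test). *Tmed5*, with which *Mtf2* shares 401 bp on the opposite strand, had a log2 fold change of 0.88 and was called higher too. *Mtf2* held 69517 counts over all libraries and *Tmed5* held 11231.

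*Phf19* (ENSMUSG00000026873, GRCm39 chr2:34783764-34805063, minus strand) was low in Control (NT), at 4.44, 4.09 and 4.82 CPM, and reached 10.7, 11.7 and 10.8 CPM in KD-1. Every KD-1 library stood far above the highest Control (NT) value. Its log2 fold change was 1.31 (standard error 0.11, 95% interval 1.06 to 1.56, adjusted p = 1.6e-05 by edgeR's quasi-likelihood test), and 15.9% of all genes tested changed by at least as much.

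*Phf1* (ENSMUSG00000024193, GRCm39 chr17:27152002-27156892, plus strand) moved the other way. It had 4.73, 6.69 and 5.36 CPM in Control (NT) and 3.20, 3.63 and 3.73 CPM in KD-1, where each library was below the lowest Control (NT) library. The log2 fold change was -0.67 (standard error 0.16, 95% interval -1.04 to -0.30, adjusted p = 0.0060 by edgeR's quasi-likelihood test). The middle-depth Control (NT) library held the highest value, and without it the log2 fold change was -0.53 (adjusted p = 0.0047, the same test), under the fold change threshold. *Phf1* shares 720 bp with *Cuta* on the opposite strand, *Cuta* had more counts (6218 against 1237 over all libraries), and it fell as well, with a log2 fold change of -0.78. Whether strand was used in counting is not given in the sources used here. Reads from the stretches that a gene shares with its antisense partner therefore cannot be told apart.

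*Epop* (ENSMUSG00000043439, GRCm39 chr11:97518215-97520528, minus strand) encodes a PRC2.1 subunit that links the complex to elongin. It had 20.4, 36.7 and 22.7 CPM in Control (NT) and 17.8, 19.9 and 18.5 CPM in KD-1. The middle-depth Control (NT) library was high, and the lowest Control (NT) value lay close to the highest of KD-1. The log2 fold change was -0.51 (standard error 0.19, 95% interval -0.95 to -0.06, adjusted p = 0.047 by edgeR's quasi-likelihood test), short of the fold change threshold. Over the 14 other settings the adjusted p lay between 0.015 and 0.14 and was under 0.05 in 6. Without the library of middle depth it was -0.21, and without the shallowest Control (NT) library it was -0.66 and was called.

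Of the PRC2.2 genes, *Jarid2* had the largest change of all 10 members and *Aebp2* was close to its Control (NT) level. *Jarid2* (ENSMUSG00000038518, GRCm39 chr13:44882950-45075119, plus strand) encodes a DNA-binding subunit related to histone demethylases but without demethylase activity. It had 114, 91.4 and 110.0 CPM in Control (NT) and 294, 281 and 295 CPM in KD-1. All KD-1 libraries stood far above all Control (NT) libraries. The log2 fold change was 1.46 (standard error 0.09, 95% interval 1.27 to 1.66, adjusted p = 1.8e-06 by edgeR's quasi-likelihood test), or 1.37 without the middle-depth Control (NT) library, in which *Jarid2* was lowest. Changes at least as large were seen in 13.6% of all genes tested, and the median log2 fold change of tested genes on chromosome 13 was 0.18. *Dtnbp1*, which shares 1215 bp with it on the opposite strand, was called lower, with a log2 fold change of -1.01 and 3572 counts against 61733 for *Jarid2*.

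*Aebp2* (ENSMUSG00000030232, GRCm39 chr6:140546644-140713010, plus strand) encodes a zinc finger protein that stabilizes the complex. It had 87.6, 89.1 and 76.1 CPM in Control (NT) and 90.2, 96.2 and 94.8 CPM in KD-1. The groups did not overlap but nearly met. The log2 fold change was 0.16 (standard error 0.07, 95% interval -0.01 to 0.32, adjusted p = 0.088 by edgeR's quasi-likelihood test), so that any rise was at most 0.32 by this interval. With a library left out it lay between 0.08 (without the deepest Control (NT) library, adjusted p = 0.27, the same test) and 0.20 (without the middle-depth one, adjusted p = 0.0100), in each case under 1.5-fold.

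Set side by side, 1 of the 4 core genes was called, higher, and 4 of the 6 accessory genes were called, 3 higher and 1 lower. The share called over all genes tested was 37.7%, and groups this small cannot be set apart from it. The median log2 fold change was 0.18 for the core, 0.10 for PRC2.1 (range -0.67 to 1.31) and 0.81 for PRC2.2, which has only *Jarid2* and *Aebp2*. Over all genes tested it was -0.01. The order of the core and PRC2.1 rests on the middle-depth Control (NT) library, since without it their medians were 0.171 and 0.244, and without the deepest Control (NT) library that of PRC2.1 was 0.0186. These are descriptions of small groups, and the difference between the classes was not tested.

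Pairs of subunits were compared by the log2 ratio of their counts within each library, which does not depend on scaling between libraries. Not all pairs are alternatives: JARID2 and AEBP2 occur together in PRC2.2, and EPOP joins a Polycomb-like protein such as MTF2. With 3 libraries against 3, an exact permutation test cannot give a two-sided p under 0.1. The ratio of *Ezh1* to *Ezh2* was -3.54 in both groups (SD 0.09 in Control (NT) and 0.07 in KD-1, n = 3 each), with a difference of 0.00 (exact permutation test, p = 1). For the other 5 ratios the groups did not overlap and each had the smallest p possible, 0.1, or 0.12 after Benjamini-Hochberg adjustment over the 6 ratios (exact permutation test, two-sided). *Phf1* to *Mtf2* was -5.01 ± 0.29 (SD, n = 3) in Control (NT) against -6.37 ± 0.08 in KD-1, a difference of -1.36. *Phf19* to *Mtf2* was the one ratio higher in KD-1, -5.33 ± 0.17 against -4.71 ± 0.04, a difference of 0.62. *Epop* to *Mtf2* was -2.80 ± 0.47 against -3.95 ± 0.04, a difference of -1.15. Within PRC2.2, *Aebp2* to *Jarid2* was -0.32 ± 0.25 against -1.63 ± 0.08, a difference of -1.31. Between the forms, *Mtf2* to *Jarid2* was 0.77 ± 0.18 and 0.00 ± 0.08, a difference of -0.77.

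**Figure D3:**
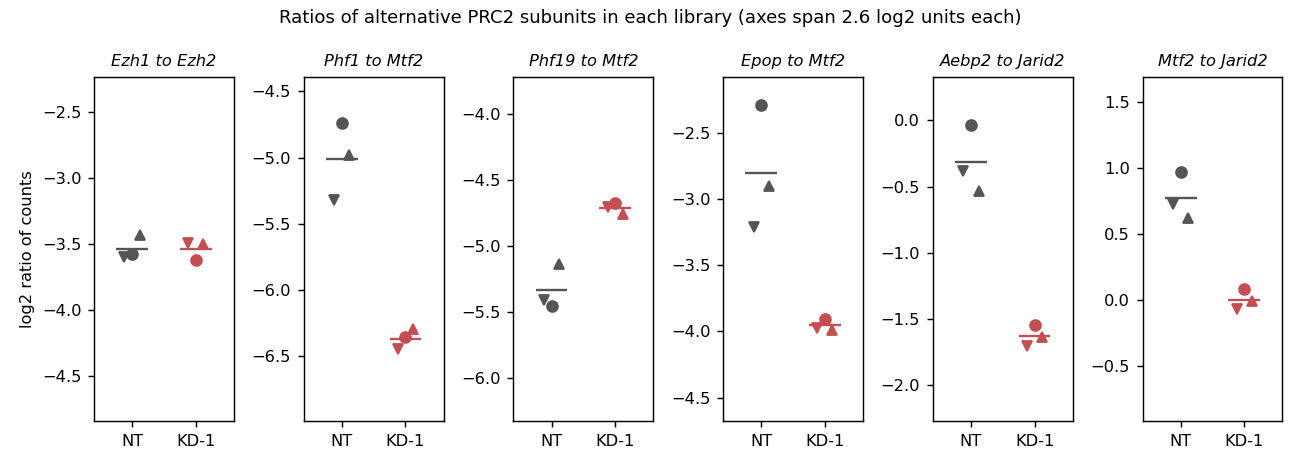
Log2 ratio of the counts of paired subunit genes in each library (points) with the mean of the 3 libraries of a group (bars). The ratio of *Ezh1* to *Ezh2* is at -3.54 in both groups, whereas the groups do not overlap in the other 5 ratios.

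To compare levels between genes, counts were divided by the length of the annotated exons and given per kilobase in CPM. In Control (NT) *Eed* was first at 30.0 ± 0.349 (SD, n = 3), ahead of *Ezh2* (28.4 ± 0.762), *Mtf2* (25.6 ± 1.5) and *Suz12* (16.5 ± 1.18). *Epop* (11.2 ± 3.67) overlapped both *Suz12* above it and *Jarid2* (9.57 ± 1.16) below it. *Aebp2* (5.03), *Ezh1* (1.93), *Phf1* (1.51) and *Phf19* (0.810) followed in this order without overlap. In KD-1 *Mtf2* was first at 43.1 ± 1.53, then *Eed* (36.3 ± 0.123), *Ezh2* (32.4 ± 0.627), *Suz12* (30.7 ± 0.258) and *Jarid2* (27.5 ± 0.584). *Epop* was at 8.26, *Aebp2* at 5.82, *Ezh1* at 2.21, *Phf19* at 2.1 and *Phf1* at 0.993, and of these neighbours *Ezh1* and *Phf19* overlapped. With the longest transcript as the length, *Ezh2* was first in both groups, so the order near the top depends on the gene model.

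By length-scaled levels, *Ezh1* made up 6.11% to 6.81% of the sum of *Ezh1* and *Ezh2* in Control (NT) libraries and 6.04% to 6.55% in KD-1 libraries, which overlap. *Mtf2* provided most Polycomb-like mRNA in both groups, 90.9% to 92.8% and 93.2% to 93.4%. In the small remainder the groups did not overlap. *Phf1* made up between 4.42% and 6.45% in Control (NT) and between 2.03% and 2.25% in KD-1. *Phf19* made up between 2.64% and 3.31% in Control (NT) and between 4.4% and 4.65% in KD-1. *Jarid2* and *Aebp2* together formed 23.8% to 29.3% of the accessory level in Control (NT) and 36.7% to 38.9% in KD-1. Accessory genes as a whole formed 40.2% to 42.8% of the level of all 10 members in Control (NT) and 45.4% to 46.8% in KD-1, or 31.5% to 33.6% and 37.1% to 38.4% with the longest transcript as the length.

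Further genes of the Polycomb pathway were taken as lists. Of 5 other PRC2 genes, the histone-binding core partners *Rbbp4* and *Rbbp7* had log2 fold changes of 0.06 and 0.01, and the PALI genes *Lcor* and *Lcorl* had 0.42 and 0.20, none of them called. *Ezhip*, which encodes an inhibitor of PRC2 active mainly in germ cells, had 0, 0 and 1 counts in the Control (NT) libraries and 17, 19 and 34 in the KD-1 libraries. It was called higher, with a ratio of depth-scaled pooled counts of 46.5 (95% interval 8.08 to 1860, counting error only). *Ezhip* entered the test only through its KD-1 counts, so the direction of its call was set by the filter. PRC1, the complex that ubiquitinates histone H2A and binds the PRC2 mark, had 8 of 29 genes called higher and 6 lower. This was 48.3% called, against 37.7% of all genes tested, with a median log2 fold change of 0.14. The largest rises were those of *Pcgf5* (1.38), *Cbx7* (1.16), which encodes a reader of the mark in ESCs, and *Rybp* (1.10). Among the falls were those of *Bcorl1* (-8.11) and *Phc2* (-1.25). The direction of the call of *Bcorl1* was set by the filter, which it passed only through its Control (NT) counts.

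Enzymes that oppose Polycomb were also measured. *Kdm6b*, which encodes a demethylase of the PRC2 mark, had means of 35.9 CPM in Control (NT) and 13.8 CPM in KD-1 and was called lower (log2 fold change -1.38, edgeR's quasi-likelihood test, adjusted p = 7.8e-06), and its relative *Kdm6a* had -0.27 and was not called. Of the 6 genes of the H2A deubiquitinase, *Bap1* (-0.68), the catalytic subunit, and *Asxl3* (-0.86) were called lower and *Asxl2* (0.80) higher, while *Asxl1* (-0.04), *Foxk1* (0.10) and *Foxk2* (0.00) were not called. Of 16 genes of complexes that methylate lysine 4 or 36 of histone H3, *Wdr5* (0.76) and *Nsd1* (0.71) were called higher and *Men1* (-0.76) lower. The median of this list was 0.03. The share called was 18.8% here and 50.0% of the deubiquitinase genes, against 37.7% of all genes tested.

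Developmental regulators known to be bound by PRC2 in ESCs changed in both directions. Of 24 listed, 14 had enough counts to be tested, and 5 were called higher and 4 lower (64.3% called, against 37.7% of all genes tested), with a median log2 fold change of 0.24. Genes at the detection limit in Control (NT) entered the test only through their KD-1 counts, so this share is not read as a result about the list. *Lhx5*, *Pax2* and *Neurod1*, transcription factor genes of neural or kidney development, had the highest fitted values among the genes called higher. *Neurod1* averaged 0.577 CPM in Control (NT) and had a log2 fold change of 2.47. *Lhx5* and *Pax2* held only 4 and 7 counts in the Control (NT) libraries together, and their ratios of depth-scaled pooled counts, KD-1 over Control (NT), were 37.7 (95% interval 14.5 to 140) and 13.3 (95% interval 6.28 to 33.6), counting error only. The largest falls were those of *Gata4* (-2.48), *Cdx2* (-1.25) and *Pax3* (-1.09), of cardiac and endoderm, posterior and somite or neural crest development. Several genes of this list are also among the neural and tail bud markers given above.

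**Figure D4:**
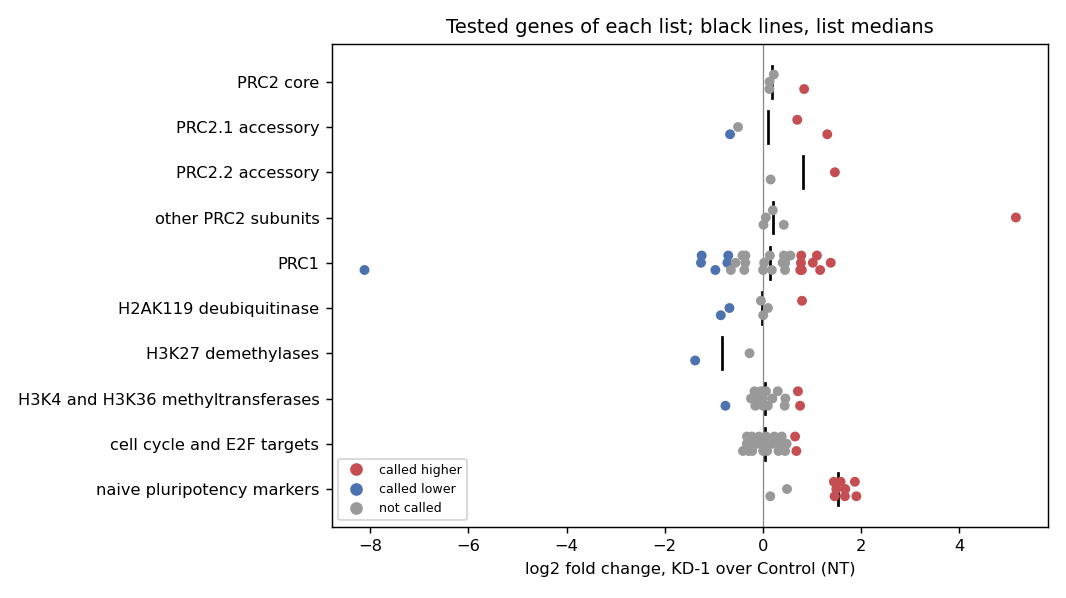
Log2 fold change of each tested gene in the PRC2 classes, further chromatin lists, the cell cycle list and the naive pluripotency markers, KD-1 over Control (NT), with colour for the call and a line at the median of a list. The medians of the PRC2 core (0.18), PRC1 (0.14) and the methyltransferase list (0.03) lie near 0, and that of the naive markers is at 1.54. PRC2.2 (0.81) and the H3K27 demethylases (-0.83), lists of 2 genes each, have medians further from 0. The outlying points are *Bcorl1* (-8.11) and *Ezhip*, whose position rests on 1 count in Control (NT).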

How the data were processed

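The authors deposited the estimated counts (expected counts) of reads per gene, made with Salmon, as whole numbers, without normalization, for 3 Control (NT) and 3 KD-1 libraries (TruSeq, paired-end). Per the labels' processing notes they were made with bcl2fastq and Salmon 1.1. The build behind the Gencode gene model, the use of strand and the summing to genes are not given in the sources used here. Salmon divides reads between similar sequences by probability, so counts of overlapping or duplicated genes are uncertain. A column's number does not correspond to a replicate number of the labels, so libraries are named by depth. The series describes the 3 samples of a group as biological replicates, and whether they came from separate experiments is not given, so p-values measure the spread between samples of 1 line per group.

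Gene names and positions came from GENCODE vM39 (GRCm39, 35222 of 35565 identifiers matched) and promoters from RefSeq (GRCm38.p6). edgeR 4.0.16 (R 4.3.3) was run on 15110 genes kept by filterByExpr, with TMM normalization (factors 0.975 to 1.03), a robust quasi-likelihood fit on group alone and Benjamini-Hochberg adjustment over all genes tested, and was tested on simulated data. Library totals were 20982249 to 85561026 counts, and 3 counts, taken as the limit that a count of 0 allows, are 0.0351 to 0.143 CPM. Intervals for pooled counts are exact (95%) and cover counting error only. Alternatives were DESeq2 1.42.0, limma-voom 3.58.1, other scalings, filters and fold thresholds, and each library left out.

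The members and lists were chosen with earlier results of these data known. All 10 members are named, and of other lists every gene where there are at most 6, or else the 3 largest rises and falls among called genes, of which 1 is not reported here. Protein sequences were not analysed here, nor was the level of *T-UCstem1*.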

Additional observations from a re-analysis of the deposited data

How the results depend on the processing

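The 4 rises, of *Jarid2*, *Phf19*, *Suz12* and *Mtf2*, were called under every test, scaling, filter and library left out, and 2 of them (*Jarid2* and *Phf19*) at an absolute log2 fold change over 1. The number of members called lower was 0 at that threshold, 2 with no fold threshold and 0 to 2 with a library left out: *Phf1* (-0.77 to -0.53) was not called without the middle-depth Control (NT) library (-0.53), and *Epop* (-0.66 to -0.21) was called without the shallowest one (-0.66). The core median of 0.18 was 0.235 with library size only, 0.221 when each library had to hold 10 counts and 0.171 to 0.213 with a library left out. The PRC2.1 median of 0.10 was 0.0186 to 0.244 with a library left out, and without the middle-depth Control (NT) library (0.244) it lay above that of the core (0.171). The *Ezh1* to *Ezh2* difference had the other sign without the deepest Control (NT) library (0.052) or without the middle-depth KD-1 library (0.04) and lay between -0.032 and 0.052 with a library left out. Under the filter of 10 counts, *Ezhip*, *Bcorl1*, *Lhx5* and *Pax2* were not tested, which left 0 other PRC2 genes and 3 developmental regulators called higher. At an absolute log2 fold change over 1, PRC1 had 4 higher and 3 lower, the deubiquitinase 0 and 0, the methyltransferase list 0 and 0, and 3 developmental regulators were higher. With no fold threshold PRC1 had 13 higher and 11 lower, 2 demethylases were lower, and the methyltransferase list had 4 higher and 2 lower. At the threshold of 1.5-fold, the methyltransferase list had 1 or 2 higher with a library left out (1 without the middle-depth Control (NT) library). Over the 10 members and 14 settings, 138 of 140 log2 fold changes kept their direction and their side of the call, the exceptions being those of *Phf1* and *Epop* given above. No paired analysis was possible because the column names do not carry the replicate numbers of the labels. The planned comparison of protein sequences was not run. The shallowest library, of 20982249 counts, limits the lowest genes most.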

Other observations

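*Bcorl1*, a PRC1.1 subunit gene and a paralog of *Bcor*, was close to absent in KD-1. It had 261, 350 and 726 counts in the Control (NT) libraries of lowest, middle and highest depth and 2, 2 and 3 counts in the KD-1 libraries. The groups were far apart in every library. Pooled over a group and scaled by depth, its level was 288-fold lower in KD-1 (95% interval 139 to 717, counting error only). Its log2 fold change in edgeR's quasi-likelihood fit was -8.11, and it was called lower. *Bcorl1* entered the test only through its Control (NT) counts, so no other call was open to it. With at least 10 counts required of every library it was not tested. It lies on chromosome X of GRCm39, from 47430222 to 47496932. The nearest tested genes were looked at after its value was seen. On one side *Utp14a* was called higher (log2 fold change 0.72), and *Zdhhc9* (0.29) and *Xpnpep2* (-1.16) were not called. On the other side *Elf4* (0.16), *Aifm1* (0.13) and *Rab33a* (0.42) were not called.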
